A study of Mus musculus with 12 samples.

Results

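The 10 genes described here encode the enzymes that make and break down polyamines and the proteins that set the life span of the first of those enzymes. They were taken by gene name (Odc1, Azin1, Amd1, Srm, Sms, Sat1, Smox, Paox, Oaz1 and Oaz2) from a table of 29428 mouse genes, and all 10 had a row and passed the filter on low values that left 16127 genes for testing. Their levels were measured by poly(A) RNA-seq in 2 immortalised mouse striatal lines, STHdhQ7/Q7 (genotype labelled normal, 7 glutamines in the huntingtin repeat) and STHdhQ111/Q111 (labelled HD, for Huntington's disease, 111 glutamines). Each line was left untreated (Q7-C and Q111-C) or received murine IFNγ at 100 ng/ml with LPS at 5 µg/ml for 24 h (Q7-T and Q111-T), with 3 libraries in each of the 4 groups. Each genotype was represented by 1 line, so a difference due to the repeat and one due to the line cannot be told apart, and in bulk RNA fewer cells of a kind cannot be told apart from less RNA per cell.

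Polyamines (putrescine, spermidine and spermine) are small positively charged molecules that bind nucleic acids and are needed for growth and translation. Ornithine decarboxylase makes putrescine from the amino acid ornithine, and 2 synthases then add aminopropyl groups drawn from decarboxylated S-adenosylmethionine. An acetyltransferase and 2 oxidases run the path backwards, with hydrogen peroxide and aldehydes among the products of the oxidases. Antizymes are made when polyamines are plentiful, since polyamines promote a shift of the ribosome to another reading frame on their mRNA, and they send ornithine decarboxylase to the proteasome, while antizyme inhibitors hold antizymes away from it. In brain, polyamines also modulate glutamate receptors and potassium channels.

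The libraries held 57505990 to 96417834 estimated counts, and the members were well covered, from 375 estimated counts for Paox in Q7-T replicate 2 to 44462 for Oaz1 in a Q7-C library. The treatment was visible in each line: Irf1, an interferon-induced transcription factor, rose 17.7-fold in Q7 and 12.2-fold in Q111 cells (edgeR, adjusted p = 2.25e-07 and 4.06e-07). Nos2, the inducible nitric oxide synthase, rose in both lines, by 6.31 and 8.90 on the log2 scale (adjusted p = 1.05e-05 and 1.06e-06). Of the neuronal markers, Snap25 and Syt1 did not exceed 0.0250 TPM (transcript abundance scaled for length and depth), and the striatal marker Bcl11b did not exceed 0.0407 TPM, while Tubb3 reached 83.6 TPM. Summed over the 4 of 6 neuronal markers in the table, the level was 22.2 to 27.5 TPM in untreated and 58.5 to 86.3 in treated Q7 cells, and 8.71 to 11.0 in untreated and 28.9 to 32.4 in treated Q111 cells. The higher sums of the treated cells came from Tubb3, whereas Map2 was at 4.41 to 10.6 TPM in untreated and 0.604 to 3.11 in treated Q7 cells. The 4 of 6 striatal projection neuron markers summed to 6.55 to 13.3 TPM over all libraries, mostly from Foxp1, while Ppp1r1b was at 1.00 to 1.30 TPM in Q111-C and at most 0.651 in the other groups. The 5 astrocyte markers summed to 1.04 to 1.93 TPM in the Q7 line and 3.94 to 11.0 in the Q111 line, and no oligodendrocyte or endothelial marker reached 1 TPM. Of the macrophage markers, Ptprc and Itgam stayed under 0.0762 TPM, and Cd68 took nearly all of a sum that ran from 5.93 to 8.45 TPM in untreated and 8.81 to 15.2 in treated Q7 cells, and from 14.5 to 16.9 in untreated and 40.8 to 58.0 in treated Q111 cells. The 5 mesenchymal markers summed to 1557 to 2141 TPM in the Q7 line, to 1184 to 1274 in Q111-C and to 290 to 394 in Q111-T. Acta2 made up most of that sum in the Q7 line (1491 to 1792 TPM, against 24.6 to 56.0 in the Q111 line), while Col1a1, Col1a2 and Col3a1 in the untreated cells were higher in the Q111 line. The 5 genes of dividing cells summed to 348 to 533 TPM in untreated and 235 to 497 in treated Q7 cells, and to 628 to 668 in untreated and 445 to 588 in treated Q111 cells, so that Q111-C lay above the other groups, and Mcm2, a part of the replicative helicase, was at 107 to 118 TPM in Q111-C and 51.4 to 76.4 in Q111-T. The part of these markers in the results was not tested.

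Among the libraries, 2 of the Q7 line stood apart from the others of their group, namely Q7-C replicate 1 and Q7-T replicate 2, and the nearest library to the latter was the former. In both, genes with long transcripts were low relative to the other libraries of the group (median log2 difference -0.84 and -1.08 for a longest transcript of 5000 bases or more), whereas genes under 1500 bases were near them (0.09 and 0.0047). The median log2 difference of genes with a longest transcript under 1500 bases exceeded that of genes of 5000 bases or more by 0.94 in Q7-C replicate 1 and 1.09 in Q7-T replicate 2, against 0.59 in Q111-T replicate 2 and -0.70 to 0.15 in the other libraries. The members did not follow the order of length throughout. In Q7-C replicate 1 and Q7-T replicate 2, respectively, Azin1 (longest coding transcript 4871 bases) differed from the mean of the other libraries of its group by -0.96 and -2.11 on the log2 TPM scale, and Amd1 (3204 bases) by -1.04 and -0.70. Srm (1338 bases) differed by 0.37 and 0.66, and Oaz1 (1071 bases) by 0.38 and 0.34. Sat1, at 1162 bases also short, was low in both (-0.26 and -0.38). Of 2 members of similar length, Odc1 (2208 bases) was at -0.43 and -0.85 and Smox (2299 bases) at 0.05 and 0.28, and Paox (4655 bases) was at -0.02 and -0.79. How far transcript length contributed to any fold change below was not tested.

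**Figure D1:**
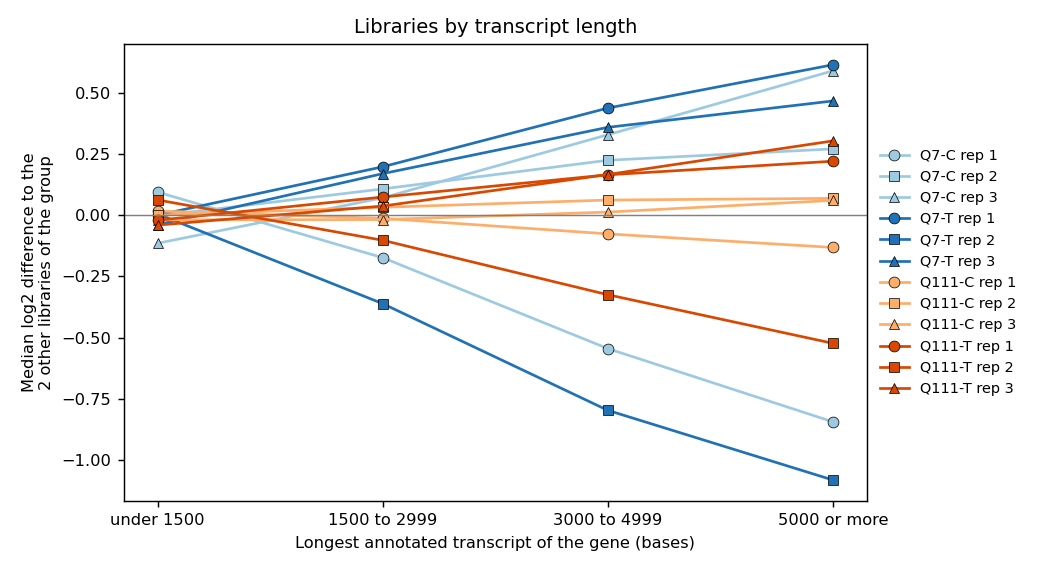
Median log2 difference between each library and the other 2 of its group (vertical axis, log2 of TPM), for genes in 4 classes of longest annotated transcript (horizontal axis, bases); colours mark the 4 groups and symbols the replicates. Q7-C replicate 1, Q7-T replicate 2 and, less so, Q111-T replicate 2 fall with transcript length, to -0.84, -1.08 and -0.52 in the class of 5000 bases or more.

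By level, the antizyme Oaz1 was the most abundant member in every group, at 316 to 408 TPM on average, and Sms, Smox and Paox were the least, with at most 24.1 TPM in any library. In untreated Q7 cells the 4 synthesis genes took 41.2% ± 4.12 (SD, n = 3) of the summed TPM of the 10 genes, the 2 antizymes 45.3% ± 6.56, the 3 catabolic genes 7.35% ± 0.826 and Azin1 6.09% ± 2.14. The share of Azin1 depended on the unit, at 12.7% of the estimated counts of the 10 genes in Q7-C, where synthesis took 39.5%, antizymes 40.3% and catabolism 7.51%. In Q111-C the shares were 37.2% ± 0.906 for synthesis, 50.4% ± 1.18 for antizymes and 7.54% ± 0.160 for catabolism. In Q111-T synthesis took 27.9% ± 2.41 and catabolism 16.6% ± 1.08, so that the synthesis share in each Q111-T library (25.4% to 30.2%) was below, and the catabolic share (15.8% to 17.8%) above, that of every library of the other 3 groups. In Q7-T synthesis took 41.4% to 43.7% and catabolism 10.5% ± 1.04. The sum of the 10 genes ran from 790 to 846 TPM in Q111-T, from 907 to 982 in Q7-T, and from 975 to 1020 in the untreated groups.

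**Figure D2:**
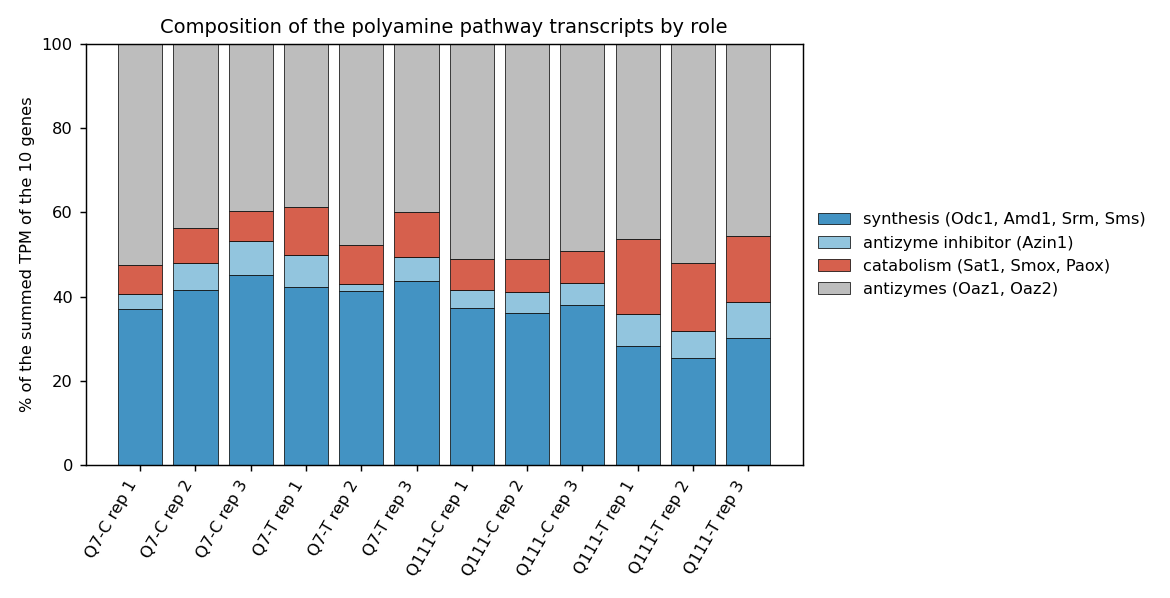
Share of each functional class in the summed TPM of the 10 genes (vertical axis, percent), 1 bar per library, for synthesis (Odc1, Amd1, Srm, Sms), the antizyme inhibitor Azin1, catabolism (Sat1, Smox, Paox) and antizymes (Oaz1, Oaz2). The 3 Q111-T bars have the smallest synthesis block, 25.4% to 30.2%, and the largest catabolic block, 15.8% to 17.8%.

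The first comparison asked how the untreated lines differ. By the quasi-likelihood test of edgeR, with p-values adjusted over the 16127 genes by the method of Benjamini and Hochberg, 2 of the 10 members, Odc1 and Smox, were lower in Q111-C than in Q7-C and 0 were higher. The same 2 were also the number with an unadjusted p under 0.05, DESeq2 likewise gave 2 lower and 0 higher (of all genes 14.2% and 14.3%), and limma on TPM gave 0 of either. Over all genes tested, 11.1% were higher and 11.6% lower in this comparison, and 15.2% passed with a change of at least 2-fold, which none of the members reached. In limma on TPM 15.4% of all genes were higher and 7.03% lower. The median log2 fold change was -0.26 over the members and -0.02 over all genes. Without the 2 libraries that stood apart, Azin1 was added to the lower members (3 lower, 0 higher), at -0.74 with an adjusted p of 0.0012, in a fit that placed 16.6% of all genes higher and 17.9% lower.

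After IFNγ/LPS the lines differed in more members, and also in more of all genes tested (11.1% higher and 11.6% lower untreated, 19.8% and 18.7% treated). Odc1, Amd1, Srm and Sms, which are all 4 synthesis genes, were lower in Q111-T than in Q7-T, and 0 of the 10 were higher (4 with an unadjusted p under 0.05, and 4 lower and 0 higher in DESeq2, where 21.7% of all genes were lower and 22.7% higher). In limma on TPM 2 were lower (Srm and Sms) and 2 higher, Smox (1.01, adjusted p = 5.91e-04) and Paox (0.69, adjusted p = 0.0253), and edgeR with library totals only gave the 4 synthesis genes lower and Smox and Paox higher (adjusted p = 0.00807 and 0.0335), under a scaling that placed 23% of all genes higher and 13.3% lower. Srm and Sms passed with at least a 2-fold change. The background was 19.8% of genes higher, 18.7% lower and 24.5% at 2-fold or more (26.7% higher and 9.65% lower in limma on TPM), and the median log2 fold change was -0.30 over the members against -0.03 over all genes. Without the 2 libraries that stood apart the same 4 genes were lower, and Smox was higher by 1.00 on the log2 scale (adjusted p = 6.88e-05), with 26.2% of all genes higher and 21.6% lower.

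In Q7 cells Sat1 was the single member that passed for the response to IFNγ/LPS (1 higher, 0 lower), where 3.61% of all genes were higher, 1.74% lower and 4.04% passed at 2-fold or more. Smox (0.66) and Paox (-0.60) had an unadjusted p under 0.05 but not an adjusted one (0.239 and 0.102), and DESeq2 placed Paox past the threshold (adjusted p = 0.0158), giving 1 higher and 1 lower (5.54% and 3.84% of all genes), while limma on TPM, which placed 2.52% of all genes higher and 1.7% lower, called 0 members. Without the 2 libraries that stood apart it was again Sat1 alone, with 4.66% of all genes higher and 3.89% lower. In Q111 cells Sat1 and Smox rose, and Amd1 and Sms fell, with Smox past 2-fold, and 5 members had an unadjusted p under 0.05. There the background was 11.3% of genes higher, 7.33% lower and 11.2% at 2-fold or more. Limma on TPM gave Sat1 and Smox higher and Srm and Sms lower, with 9.1% of all genes higher and 8.53% lower. Without the 2 Q7 libraries that stood apart, which enter this comparison through the shared estimate of the spread, Azin1 joined the higher genes and Srm the lower ones, giving 3 higher and 3 lower, with 20.1% of all genes higher and 16.6% lower in that fit.

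The difference between the 2 responses was tested by the interaction of line and treatment, coded as the log2 response of Q111 cells minus that of Q7 cells. It passed for Amd1 and Sms, both negative, and for 0 members in the positive direction, where 4 members had an unadjusted p under 0.05 and DESeq2 gave 2 negative and 1 positive (Smox), with 4.9% of all genes negative and 7.31% positive. Limma on TPM, with 4.15% of all genes positive and 1.74% negative, called Smox alone, and edgeR with library totals only called Sms and Smox, with 1.5% of all genes negative and 3.39% positive. Over all genes, 3.94% passed with a positive and 1.75% with a negative interaction, and 4.71% at 2-fold or more, which Sms reached. Without the 2 libraries that stood apart Srm (-0.87, adjusted p = 0.0193) and Smox (1.62, adjusted p = 2.01e-04) passed as well, giving 3 negative and 1 positive, in a fit where 10.7% of all genes passed with a positive and 6.39% with a negative interaction.

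**Figure D3:**
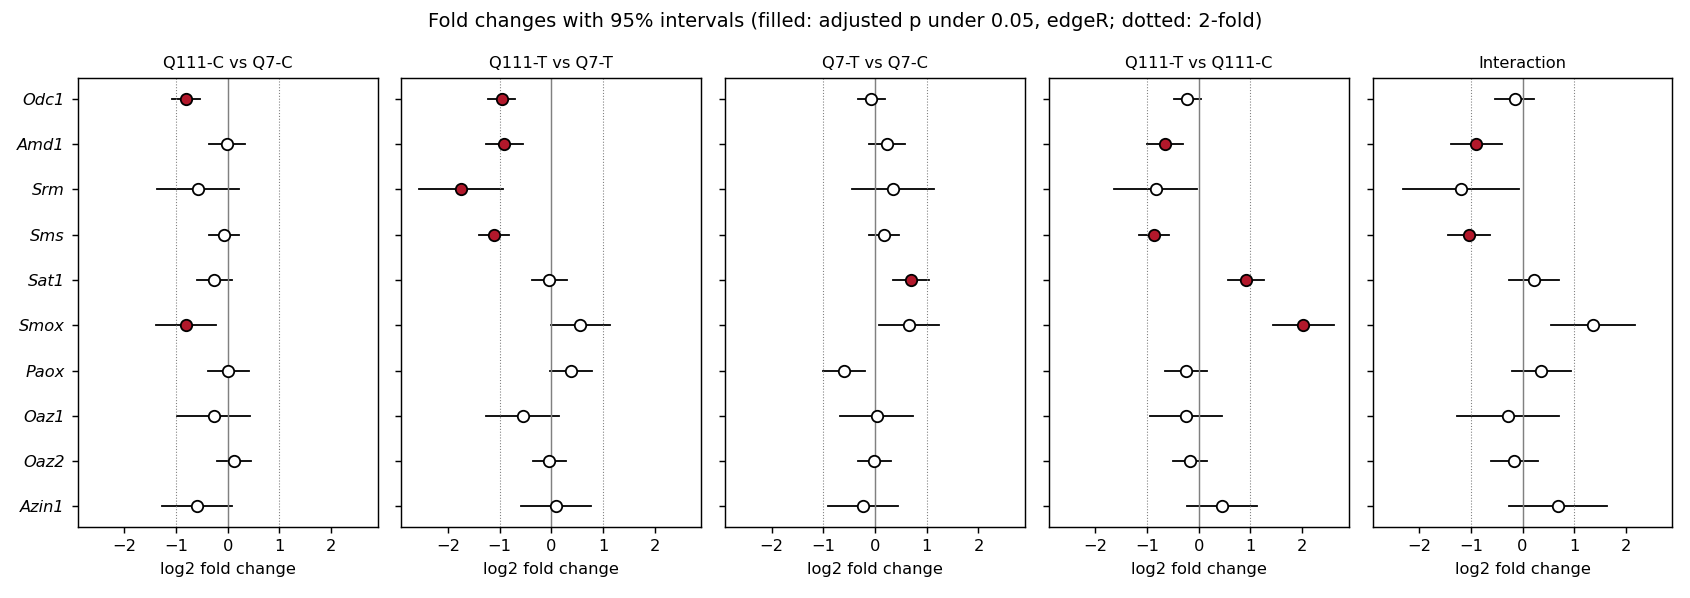
Log2 fold change (horizontal axis) of each of the 10 genes in the 4 comparisons and of the interaction, with its 95% confidence interval; filled points had an adjusted p under 0.05 and dotted lines mark 2-fold. The 4 synthesis genes lie between -1.75 and -0.91 in Q111-T vs Q7-T, and Smox lies at 2.02 in Q111-T vs Q111-C.

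Of the synthesis genes, Odc1 (ENSMUSG00000011179, chr12:17544794-17551084 on GRCm38, + strand) encodes ornithine decarboxylase, the rate-limiting enzyme. It stood at 116, 148 and 166 TPM in Q7-C and at 148, 79.8 and 140 in Q7-T. It stood at 106, 99.2 and 99.2 TPM in Q111-C and at 92.5, 65.0 and 87.9 in Q111-T. The untreated lines did not overlap, the treated ones did through the single low Q7-T library, and Q111-T lay wholly below Q111-C. By counts scaled with TMM, Odc1 was 1.75-fold lower in Q111-C than in Q7-C (log2 -0.81, SE 0.12, adjusted p = 4.94e-04) and 1.94-fold lower in Q111-T than in Q7-T (log2 -0.96, SE 0.12, adjusted p = 1.08e-04). Both calls held with any 1 library left out. On the deposited TPM scale the median gene was itself 0.27 (log2) above Q7-C in the untreated and 0.34 above Q7-T in the treated Q111 line, and there Odc1 differed by -0.48 and -0.55 and did not pass in limma (adjusted p = 0.18 and 0.0954). The treatment moved Odc1 by -0.07 in Q7 cells (95% interval -0.33 to 0.19) and by -0.22 in Q111 cells (-0.49 to 0.04), neither past the threshold.

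Amd1 (ENSMUSG00000075232, chr10:40287458-40302186, - strand) encodes S-adenosylmethionine decarboxylase, which makes the aminopropyl donor. Its level was 57.5, 113 and 124 TPM in untreated and 126, 70.9 and 104 in treated Q7 cells. In Q111 cells it was 117, 118 and 118 TPM untreated and 67.7, 63.3 and 77.7 treated. The 3 Q111-C libraries were close to one another (coefficient of variation 0.532%, against 36.3% in Q7-C), and the 3 Q111-T libraries lay far below them. Amd1 fell 1.58-fold in Q111 cells (log2 -0.66, SE 0.16, adjusted p = 0.0130), a call lost without Q111-T replicate 1 (adjusted p = 0.0509) and in limma on TPM (0.0896). In Q7 cells the change was 0.24 (95% interval -0.11 to 0.59), and 0.04 without both divergent libraries. After treatment it was 1.87-fold lower in Q111 than in Q7 cells (log2 -0.91, SE 0.16, adjusted p = 0.00108), which limma on TPM did not call (adjusted p = 0.19). The interaction, -0.90 (SE 0.22, adjusted p = 0.0392), was fragile. Of 12 refits that each left out 1 library it passed in 3, those without Q7-C replicate 1, Q7-C replicate 3 or Q7-T replicate 2, and in the other refits, without Q7-C replicate 2, Q7-T replicate 1 or 3 or any library of the Q111 line, its adjusted p was 0.0587 to 0.102.

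Srm (ENSMUSG00000006442, chr4:148591503-148594619, + strand) encodes spermidine synthase. In Q7 cells it was at 179, 136 and 142 TPM without and 124, 213 and 146 with treatment, and in Q111 cells at 139, 123 and 136 without and 70.2, 73.1 and 63.1 with it. Every Q111-T library was below every other library, and the 2 highest values came from the 2 Q7 libraries that stood apart. In the treated lines Srm was 3.36-fold lower in Q111 cells (log2 -1.75, SE 0.37, adjusted p = 0.00345). The difference was -1.11 without the 2 libraries (adjusted p = 1.65e-04) and -1.14 without Q7-T replicate 2 alone. Within Q111 cells the change was -0.83 (SE 0.36, adjusted p = 0.148), past the threshold without the 2 libraries (-0.83, adjusted p = 8.31e-04), without Q7-T replicate 2 alone (adjusted p = 0.0160), and in limma on TPM (adjusted p = 0.00537). In Q7 cells the change was 0.35 (95% interval -0.44 to 1.14), and it was -0.25 without Q7-T replicate 2, 0.68 without Q7-C replicate 1 and 0.04 without both.

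Sms (ENSMUSG00000071708, chrX:157443855-157492287, - strand) encodes spermine synthase, which adds the second aminopropyl group. Untreated Q7 cells held 11.6, 15.4 and 17.3 TPM and treated ones 17.7, 11.6 and 14.1, while untreated Q111 cells held 17.3, 16.7 and 18.1 and treated ones 8.78, 8.20 and 9.61. The Q111-T libraries again lay below all others, and the other 3 groups overlapped. Sms fell 1.83-fold in Q111 cells (log2 -0.87, SE 0.13, adjusted p = 7.19e-04) and was 2.16-fold lower in Q111-T than in Q7-T (log2 -1.11, SE 0.13, adjusted p = 7.68e-05). In Q7 cells it changed by 0.17 (95% interval -0.12 to 0.46), and by 0.04 without both divergent libraries. The interaction was -1.04 (SE 0.19, adjusted p = 0.00788) and held with any 1 library left out (adjusted p = 0.00505 to 0.0296), whereas limma on TPM gave -0.90 with an adjusted p of 0.0939. The untreated lines differed by -0.07 (95% interval -0.36 to 0.22).

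Rows chosen by name as copies of member genes also carried counts. Their sequences were not compared with those of the parents, and reads of parent and copy may have been divided between them. The row Sms-ps stood at 8.20 to 22.0 TPM in the libraries, Amd2 at 6.28 to 18.5, Amd-ps3 at 4.68 to 13.2 and Amd-ps4 at 1.54 to 5.48. Oaz1-ps stood at 22.3 to 39.9 TPM and Oaz2-ps at 1.83 to 10.1. Sms-ps moved as Sms did, with -0.92 in Q111 cells (SE 0.17, adjusted p = 0.00301) and an interaction of -1.11 (SE 0.24, adjusted p = 0.0210). With the counts of the copies added to the parent, the fall of Sms in Q111 cells was -0.88 (adjusted p = 4.41e-04) and that of Amd1 -0.64 (adjusted p = 0.0144), and no call of a member changed.

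The stretch before the annotated start of Sms is shown because the difference between the 2 responses held for this gene with any 1 library left out. The table gives Sms 2 windows, and the one printed comes from the RefSeq promoter table (GRCm38.p6), chrX:157492288-157492537, - strand, which ends at the base before the start. The capitals mark a CACGTG E-box, the letters bound by Myc and other factors of its family, that begins at position -196 from the start:
Sms: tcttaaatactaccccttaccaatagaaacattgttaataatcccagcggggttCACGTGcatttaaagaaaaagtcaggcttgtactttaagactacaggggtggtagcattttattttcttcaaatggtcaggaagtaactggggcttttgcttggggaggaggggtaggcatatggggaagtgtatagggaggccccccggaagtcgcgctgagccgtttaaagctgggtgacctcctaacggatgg
CACGTG, read on both strands, is present in 7.15% of the 32851 promoter windows of the same table (250 bases before to 50 after each start). Of the 10 members, 8 had a window, and Sms was the one with this motif. The other Sms window, whose part outside annotated exons is chrX:157491373-157491618, did not hold it. Azin1 and Srm had none in the table.

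**Figure D4:**
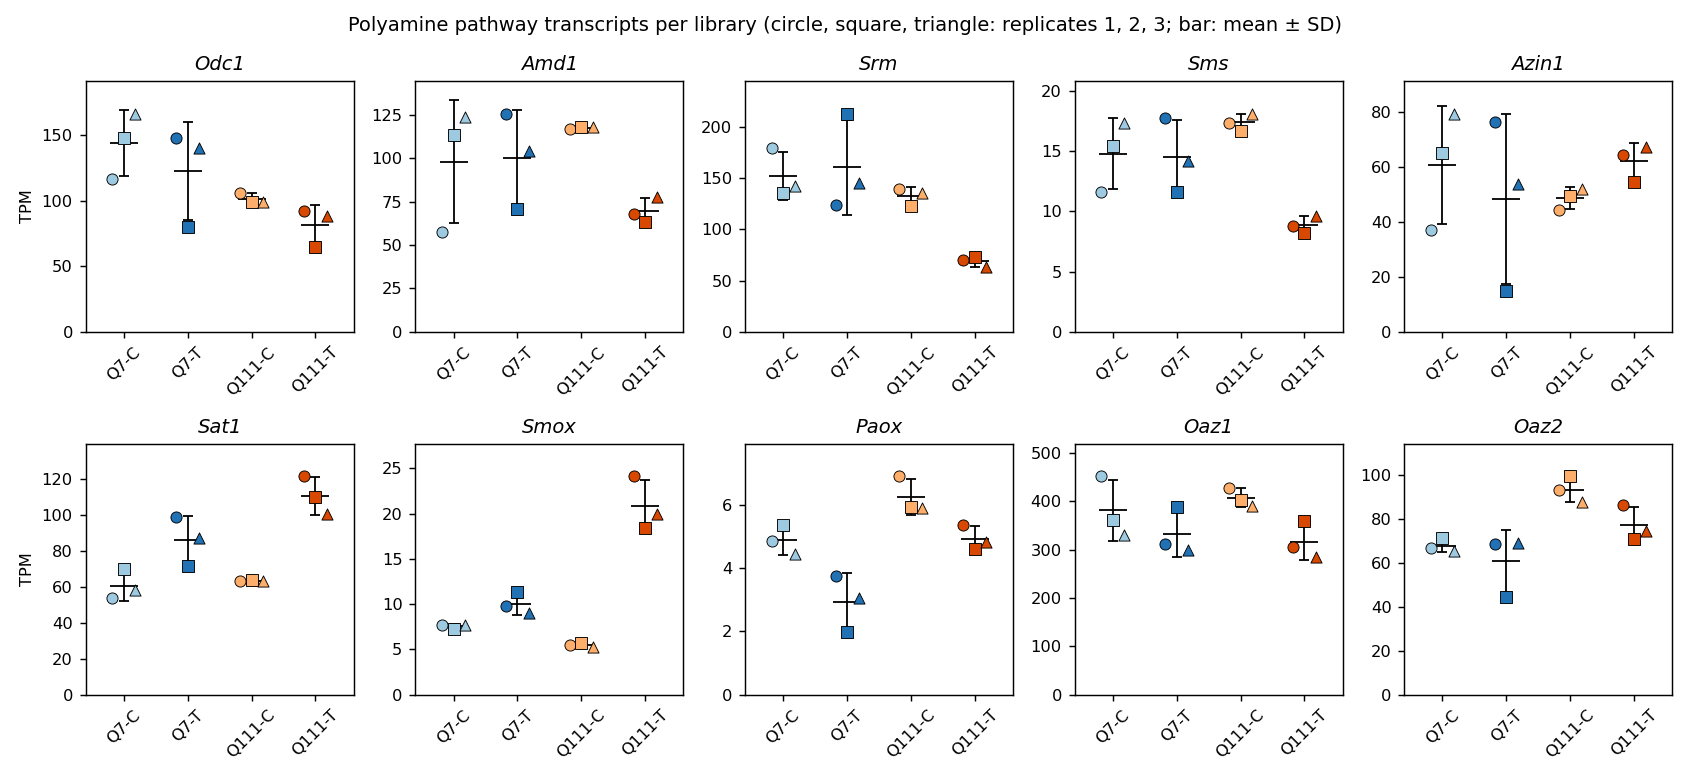
TPM (vertical axis) of each of the 10 genes in the 12 libraries by group; circles, squares and triangles are replicates 1, 2 and 3, and bars give the mean and SD of the 3 libraries. In Q111-T, Srm (63.1 to 73.1 TPM) and Sms (8.20 to 9.61 TPM) lie below, and Smox (18.5 to 24.1 TPM) above, all other libraries.

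Of the catabolic genes, Smox (ENSMUSG00000027333, chr2:131491496-131525922, + strand) encodes spermine oxidase, which turns spermine back to spermidine and releases hydrogen peroxide. It was at 7.71, 7.24 and 7.65 TPM in untreated and 9.78, 11.4 and 8.96 in treated Q7 cells, and at 5.44, 5.75 and 5.20 in untreated and 24.1, 18.5 and 19.9 in treated Q111 cells. None of the 4 groups overlapped, in the order Q111-T, Q7-T, Q7-C and Q111-C, and Smox was the one member with that property, which 3.19% of all genes tested had. It rose 4.07-fold in Q111 cells (log2 2.02, SE 0.27, adjusted p = 2.76e-04), a call held with any 1 library left out and in DESeq2 and limma. In Q7 cells the change was 0.66 (95% interval 0.08 to 1.23, adjusted p = 0.239), 0.26 without Q7-T replicate 2, 0.85 without Q7-C replicate 1 and 0.41 without both (adjusted p = 0.0774). The interaction was 1.37 (SE 0.37), just outside the threshold (adjusted p = 0.0563), and inside it in DESeq2 (0.0109), in limma on TPM (0.00346) and without Q7-T replicate 2 (1.76, adjusted p = 0.00125). Between the treated lines the difference was 0.56 (adjusted p = 0.112), and it passed without Q7-T replicate 2 (0.97, adjusted p = 0.00135), with library totals only (0.82, adjusted p = 0.00807) and in limma on TPM (1.01, adjusted p = 5.91e-04).

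Between the untreated lines Smox was 1.75-fold lower in Q111-C (log2 -0.81, SE 0.26, adjusted p = 0.0470). That call was close to the threshold. It was lost in the refits without any 1 library of Q7-C, Q111-C or Q111-T (adjusted p up to 0.159), and with the size factors of DESeq2 in edgeR (0.055) or in limma on TPM (-0.43, adjusted p = 0.0839). It was kept without any 1 library of Q7-T, and without both libraries that stood apart (-0.62, adjusted p = 0.00186).

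The Smox window is shown because this gene had the largest fold change of the 10. Its part outside annotated exons is chr2:131491654-131491763, + strand (RefSeq, GRCm38.p6), from position -208 to -99 of the RefSeq start and inside the bounds of the Ensembl gene. The capitals mark TGACNNNGC, the core letters of the antioxidant response element that Nrf2 binds, beginning at position -193:
Smox: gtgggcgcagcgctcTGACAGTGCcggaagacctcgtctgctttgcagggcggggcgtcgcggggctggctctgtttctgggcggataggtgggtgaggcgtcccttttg
These letters, on either strand, occur in 12.4% of the 32851 windows, and Oaz1 was the other member with them, as TGACGACGC at position -13. The motif overlapped no other one searched. Neither TTCNNNGAA, the letters of sites for STAT factors (in 8.3% of windows), nor the core of the interferon-stimulated response element (3.44%) was found in the window of a member.

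Sat1 (ENSMUSG00000025283, chrX:155213132-155216449, - strand) encodes spermidine/spermine acetyltransferase, whose products are exported or oxidised. Q7 cells held 53.5, 69.7 and 58.1 TPM before and 98.5, 71.5 and 87.0 after treatment, and Q111 cells 62.8, 63.9 and 63.0 before and 121.2, 109.8 and 100.3 after it. Treated and untreated libraries did not overlap in either line, and the untreated lines did. Sat1 rose 1.62-fold in Q7 cells (log2 0.69, SE 0.16, adjusted p = 0.0238) and 1.88-fold in Q111 cells (log2 0.91, SE 0.16, adjusted p = 0.00171). The call in Q7 cells was lost without Q7-C replicate 2 (adjusted p = 0.0723), without Q7-C replicate 3 (0.113), in the fit of the 2 Q7 groups alone (0.209), without a filter on low values (0.0506) and in limma on TPM (0.50, adjusted p = 0.128), whereas that in Q111 cells held in all 25 alternatives. The responses differed by 0.22 (95% interval -0.27 to 0.70, adjusted p = 0.646), and the treated lines by -0.04 (-0.38 to 0.30), or 0.12 without both divergent libraries.

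Paox (ENSMUSG00000025464, chr7:140115799-140137224, + strand) encodes the oxidase that acts on acetylated polyamines, and overlaps Echs1 on the opposite strand. With 1.97 to 6.89 TPM it had the lowest mean of the 10 genes in every group but Q111-C, where Smox was lower. Its values were 4.84, 5.35 and 4.44 TPM in untreated and 3.75, 1.97 and 3.06 in treated Q7 cells, against 6.89, 5.91 and 5.90 in untreated and 5.37, 4.59 and 4.81 in treated Q111 cells. Each treated group lay below its untreated group, with log2 changes of -0.60 in Q7 cells (95% interval -1.01 to -0.20, adjusted p = 0.102) and -0.24 in Q111 cells (-0.65 to 0.16), neither past the threshold in edgeR. Between the treated lines Paox differed by 0.38 (adjusted p = 0.127), which passed with library totals only (0.58, adjusted p = 0.0335) and in limma on TPM (0.69, adjusted p = 0.0253).

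Of the genes that govern ornithine decarboxylase, Oaz1 (ENSMUSG00000035242, chr10:80826656-80829290, + strand) and Oaz2 (ENSMUSG00000040652, chr9:65668001-65690300, + strand) encode antizymes 1 and 2. Their mRNAs are read in full only when the ribosome skips 1 base at a stop codon near the start of the coding sequence, and that site is shown here because the amount of mRNA measured does not tell how often it is passed. The stretches are exonic, in the coding sequence, and were read from the GENCODE M21 transcripts (GRCm38) as chr10:80828280-80828309 for Oaz1 and chr9:65686257-65686286 for Oaz2, both + strand. The capitals mark the last codon of the first frame and the stop codon after it:
Oaz1: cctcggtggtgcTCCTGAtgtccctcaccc
Oaz2: cctctgtggtgcTCCTGAtgcccctcaccc
The 2 stretches share 28 of 30 bases, and the coding models of the annotation leave out the first base of the stop codon, at position 80828295 in Oaz1 and 65686272 in Oaz2.

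Neither antizyme mRNA passed the test in any comparison. Oaz1 was at 452, 362 and 329.7 TPM in untreated and 311, 387 and 299.9 in treated Q7 cells, and at 428, 404 and 391 in untreated and 305, 358 and 285 in treated Q111 cells. Its highest value in each Q7 group came from the library that stood apart, and Q111-T lay below Q111-C without overlap. The log2 changes were 0.03 in Q7 cells (95% interval -0.67 to 0.73; -0.40 without Q7-T replicate 2, 0.37 without Q7-C replicate 1 and -0.10 without both) and -0.25 in Q111 cells (-0.95 to 0.45). Oaz2 had the narrowest spread of group means of the 10 genes, 0.17 on the log2 CPM (counts scaled to library size) scale. It stood at 66.9, 71.2 and 65.4 TPM in untreated and 68.6, 44.2 and 69.2 in treated Q7 cells, and at 93.1, 99.4 and 87.7 in untreated and 86.6, 70.8 and 74.7 in treated Q111 cells. By TPM its Q111 libraries were above the Q7 libraries of the same treatment, but by TMM-scaled counts the lines differed by 0.12 (95% interval -0.20 to 0.45) untreated and -0.04 (-0.36 to 0.29) treated. Without both divergent libraries these were 0.28 (adjusted p = 0.0617) and 0.02.

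Azin1 (ENSMUSG00000037458, chr15:38487427-38519266, - strand) encodes antizyme inhibitor 1, a relative of ornithine decarboxylase that has no enzyme activity of its own. It was at 37.0, 65.1 and 79.2 TPM in Q7-C and 76.1, 15.0 and 53.6 in Q7-T, and at 44.1, 49.4 and 51.9 in Q111-C and 64.4, 54.3 and 67.2 in Q111-T. The lowest value in each Q7 group came from the library that stood apart, and the Q111-T libraries lay above the Q111-C ones. No comparison passed with all libraries (adjusted p = 0.212 to 0.831). Without the 2 libraries Azin1 rose in Q111 cells, by 0.46 (adjusted p = 0.0104), and was lower in Q111-C than in Q7-C (-0.74, adjusted p = 0.0012). The latter also passed without Q7-T replicate 2 alone (-0.58, adjusted p = 0.0191), and both passed in fits of the 2 groups compared alone.

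The balance of antizyme to its target was taken as log2(Oaz1/Odc1) of TPM within each library, a ratio from which library scaling drops out. A shift with transcript length does not drop out, since Oaz1 (1071 bases) is shorter than Odc1 (2208 bases). The highest values of their groups were those of Q7-C replicate 1 (1.95), Q7-T replicate 2 (2.28) and Q111-T replicate 2 (2.46), the libraries low in long transcripts. It was 1.41 ± 0.495 (SD, n = 3) in untreated and 1.48 ± 0.690 in treated Q7 cells, and 2.01 ± 0.0244 in untreated and 1.96 ± 0.436 in treated Q111 cells. Oaz1 thus exceeded Odc1 by 3.94- to 4.07-fold in the Q111-C libraries and by 1.98- to 3.88-fold in the Q7-C libraries, with no overlap. The difference of 0.59 between the untreated lines had an exact two-sided permutation p of 0.1, the smallest that 3 against 3 libraries allow, and 0.4 after adjustment over the 4 comparisons made. It was 0.87 without Q7-C replicate 1 and 0.38 without Q7-C replicate 3. The treated lines differed by 0.48 (exact permutation p = 0.3), by 0.88 without Q7-T replicate 2, by 0.27 without Q7-T replicate 1, 0.28 without Q7-T replicate 3 and 0.23 without Q111-T replicate 2, and by 0.17 when the ratio was taken as (Oaz1 + Oaz2)/(Odc1 + Azin1). The treatment moved the balance by 0.07 in Q7 cells (exact permutation p = 0.8) and -0.04 in Q111 cells (p = 1.0), differences within the spread of the libraries. With the ratio of both antizymes to Odc1 and Azin1 these shifts were 0.14 and -0.28.

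The 2 responses can be set side by side gene by gene. Sat1 and Smox had positive changes in both lines, Paox and Odc1 negative ones, and Amd1, Srm and Sms had small positive changes in Q7 cells (0.24, 0.35 and 0.17) and negative ones in Q111 cells (-0.66, -0.83 and -0.87). Without both divergent libraries the 3 changes in Q7 cells were 0.04 each. That of Srm was negative without Q7-T replicate 2, and that of Sms in limma on TPM. Among the remaining members, Oaz1 also had a positive change in Q7 cells (0.03) and a negative one in Q111 cells. Azin1 had the reverse signs (-0.23 in Q7 cells), and Oaz2 was negative in both lines (-0.01 in Q7 cells). None of these changes passed the threshold. The 2 responses share no library, whereas each of them shares libraries with the comparisons between lines. Of the 30 pairs of neighbouring groups in the order of mean TPM over the 10 genes, 19 overlapped in their libraries and 11 did not, where 26.2% of such pairs over all genes tested did not.

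**Figure D5:**
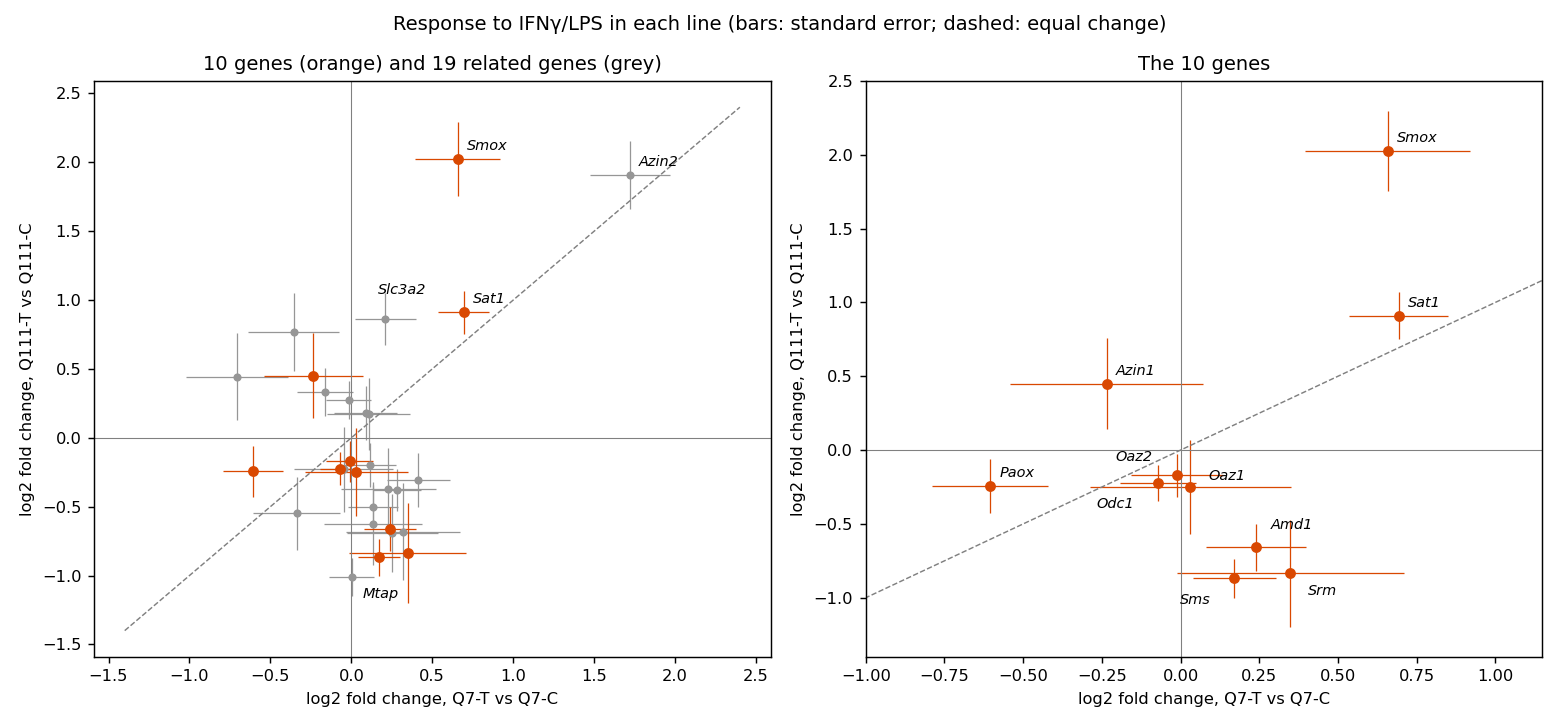
Log2 fold change by IFNγ/LPS in Q7 cells (horizontal axis) against that in Q111 cells (vertical axis), with standard errors; the left panel shows the 10 genes in orange and 19 related genes in grey, and the right panel the 10 genes alone. Smox (0.66 and 2.02) lies above the dashed line of equal change, and Amd1, Srm and Sms lie below it, at -0.66 to -0.87 on the vertical axis.

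The genes around the pathway were taken from a list of 26, of which 23 were in the table and 19 passed the filter. Satl1, Slc22a2 and Slc22a3 were not analysed here. Oaz3, Agmat, Otc and Slc12a8 were below the filter, with at most 0.454 TPM in any library (Slc12a8). Of the 19, 4 were higher and 4 lower in the untreated Q111 line than in the Q7 line (11.1% and 11.6% of all genes), and 3 were higher and 8 lower after treatment (19.8% and 18.7% of all genes). With treatment 1 rose and 0 fell in Q7 cells (3.61% and 1.74% of all genes; edgeR, 2 with an unadjusted p under 0.05, and DESeq2 also 1 and 0), and 2 rose and 2 fell in Q111 cells (11.3% and 7.33% of all genes). Without the 2 libraries that stood apart, Atp13a2 and Atp13a3 joined the genes that rose in Q111 cells. Mri1, Enoph1, Slc18b1, Dhps, Dohh and Eif5a joined those that fell, with 20.1% of all genes higher and 16.6% lower in that fit. The interaction passed for 1, Mtap, and without the 2 libraries that stood apart for 9 of the 19, 4 positive and 5 negative (10.7% and 6.39% of all genes).

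Azin2, antizyme inhibitor 2, was at 3.19 to 3.69 TPM in untreated and 8.88 to 10.3 in treated Q7 cells, and at 11.8 to 13.1 in untreated and 39.3 to 48.1 in treated Q111 cells. It rose 3.30-fold in Q7 cells (adjusted p = 0.00109) and 3.75-fold in Q111 cells (adjusted p = 2.18e-04), and its untreated level was 2.83-fold higher in the Q111 line (adjusted p = 9.05e-04). In Q111-T the mean of Azin2 (42.9 TPM) thus came near that of Azin1 (62.0 TPM), whereas in Q7-C it was 3.42 against 60.4 TPM. Oat, which diverts ornithine to glutamate and proline, was higher in the Q111 line without treatment (0.67, adjusted p = 0.00435) and with it (0.96, adjusted p = 2.95e-04).

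Mtap clears methylthioadenosine, the by-product of Srm and Sms. It was at 75.7, 114 and 122 TPM in untreated and 110.1, 59.5 and 108 in treated Q7 cells, and at 182, 176 and 188 in untreated and 76.9, 87.0 and 88.0 in treated Q111 cells. It fell 2.01-fold in Q111 cells (log2 -1.01, SE 0.14, adjusted p = 3.30e-04), with an interaction of -1.01 (SE 0.19, adjusted p = 0.0112), and its untreated level was higher in the Q111 line (0.52, adjusted p = 0.018). Enoph1 (-0.99, adjusted p = 4.28e-04) and Adi1 (-0.59, adjusted p = 0.0147), later enzymes of the same methionine salvage path, were lower in Q111-T than in Q7-T, although their TPM overlapped. Of the other genes of that path tested, Mri1 (-0.95, adjusted p = 0.0538) and Apip (0.22, adjusted p = 0.387) did not pass with all libraries. Without both divergent libraries Mri1 was at -0.34 (edgeR, adjusted p = 0.116), and Apip passed as higher in Q111-T (0.38, adjusted p = 0.0472). Enoph1 (-1.08) and Adi1 (-0.68) stayed lower there. Mat2b, the regulatory subunit of S-adenosylmethionine synthetase, was higher in Q111-C (0.78, adjusted p = 0.0126). Amd2, the copy of Amd1, was lower in the Q111 line without treatment (-0.68, adjusted p = 0.00756) and with it (-1.31, adjusted p = 7.36e-05), and fell in Q111 cells (-0.50, adjusted p = 0.0435).

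Among users and carriers of polyamines, Eif5a, the translation factor that spermidine modifies to hypusine, was lower in Q111-T than in Q7-T (-1.46, SE 0.29, adjusted p = 0.00226). Dohh, which completes that modification, was lower in the Q111 line without treatment (-1.11, adjusted p = 0.0221, and -0.71 without both divergent libraries) and with it (-1.86, adjusted p = 8.00e-04). Slc3a2, a transporter heavy chain with a part in polyamine export, was at 244 to 251 TPM in Q7-C and 117 to 127 in Q111-C, a difference of -1.34 (adjusted p = 3.40e-04), and rose 1.82-fold in Q111 cells (adjusted p = 0.00756), to 199 to 213 TPM. Atp13a3, a polyamine transporter, was higher in the treated Q111 line than in the treated Q7 line (1.04, adjusted p = 0.0135). Myc, a transcription factor for which Odc1 is a classical target, was at 72.3 to 79.9 TPM in Q7-C and 45.3 to 48.7 in Q111-C, a difference of -1.05 (SE 0.26, adjusted p = 0.0123; -0.84 without both divergent libraries), and was also lower in Q111-T (-0.98, adjusted p = 0.0117).

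For the 3 members whose group means ranged most widely, the genes with the most similar profile over the 12 libraries were found by the root mean square difference of centred log2 CPM. For Smox these were Psrc1, Plaat3 and Phlda3, at 0.21, 0.22 and 0.25. For Srm they were Polr2e, Pgp and Nhp2, at 0.10, 0.12 and 0.12, and for Sms Umps, Serbp1 and Nifk, at 0.13, 0.13 and 0.14. Since they were chosen for this likeness, their levels in the 4 groups are no separate result.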

How the data were processed

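The deposited table held 12 libraries, as 2 columns each. Per the methods of the study, reads were trimmed with Cutadapt, mapped to GRCm38 (Ensembl release 101) with HISAT2 and assembled and quantified with StringTie, gffcompare and Ballgown. The deposited values are TPM (scaled for transcript length and depth), as made by the authors, and estimated counts per gene, which the authors deposited as whole numbers. Many of the counts are multiples of 4, and dividing them by 4 was an alternative. The deposited TPM sum to 688352 to 719623 per library.

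Tested were genes that reached 0.5 TPM in 3 or more libraries, with edgeR 4.0.16 in R 4.3.3 (TMM, quasi-likelihood, 1 mean per group over all 12 libraries), with Benjamini-Hochberg adjustment. A gene passed at an adjusted p under 0.05 and was also counted at 2-fold or more, the thresholds of the study, which used DESeq2. Fold changes given without a scale are log2. Alternatives were DESeq2 1.42.0, limma 3.58.1 on log2(TPM + 0.5), RLE or total scaling, other pseudocounts and filters, a replicate block, the 2 groups compared alone, each library left out, both divergent libraries left out, and copies added to parents, the last 2 chosen after seeing the data. On simulated counts with 200 changed genes of 16127 the test called 92 in the comparison Q111-T vs Q111-C, 89 of them rightly (68 changed 4-fold and 21 changed 2-fold), and 47 in the interaction, 45 rightly (43 changed 4-fold and 2 changed 2-fold). The simulated libraries had no shift with transcript length, unlike some of the real ones. The share of right calls therefore need not hold for the real data.

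Named were the 10 members, the genes of the related list that passed in any comparison or were below the filter, the 3 nearest profiles of 3 members, rows named as copies of members, and Irf1, Cxcl10 and Nos2, of which Cxcl10 rose by 6.00 in Q7 and 5.51 in Q111 cells. Named outside that rule were genes of the list without a row and, after their values were seen, some marker genes, Mri1, Apip, Atp13a2, Slc18b1 and Dhps. Some genes of the related list are not reported here. The members and lists were chosen with earlier results of these data known. With each estimated count taken as an independent read, the libraries of a group differed by more than sampling noise (chi-square per degree of freedom at least 18.3). Since many counts are multiples of 4, sampling noise alone can raise that value, and the excess is overstated. The study calls them biological replicates, the labels do not say how their cultures were separated, and p-values measure the spread between these libraries. A planned comparison of protein sequences was not made. Transcript lengths are from GENCODE M21 and promoters from RefSeq.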

Additional observations from a re-analysis of the deposited data

Results flagged for a closer look

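In 3 genes among the 10 members and 19 related genes tested, the response to IFNγ/LPS differed between the 2 lines by the test of the difference itself (edgeR, interaction of line and treatment, coded as Q111 minus Q7), which over all genes passed with a negative sign in 1.75% and with a positive one in 3.94%. Sms, spermine synthase, differed by -1.04 (adjusted p = 0.00788), which held with any 1 library left out but was not called in limma on TPM. Amd1, S-adenosylmethionine decarboxylase, differed by -0.899 (adjusted p = 0.0392), which passed in 9 of 24 alternatives. Mtap, which clears the by-product of the polyamine synthases, differed by -1.01 (adjusted p = 0.0112). It was not called at 2-fold or more with library totals only or in limma on TPM. Each fell in Q111 cells, and none passed the test in Q7 cells.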

How the results depend on the processing

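Of 3591 alternative fold changes of the members and related genes, 177 had another sign than the value reported, in 0 cases with a passed test in either fit. Genes called at 2-fold or more for the treatment in Q7 cells numbered 651, against 394 in the fit of the 2 groups alone and 414 in limma on log2(TPM + 1), and for the interaction 760, against 1299 in DESeq2 and 1374 without both divergent Q7 libraries. Members called between the treated lines numbered 2, against 1 with library totals only and 1 in limma on log2(TPM + 1), and for the interaction 1, against 2 in DESeq2. Related genes called between the untreated lines numbered 4, against 2 with library totals only and 2 without both divergent libraries. In treated against untreated Q111 cells they numbered 2, against 1 without both divergent libraries, where Mtap was at -0.998 and so just under 2-fold. For the interaction they numbered 1, against 0 with library totals only, 0 in limma on log2(TPM + 0.5), log2(TPM + 0.1) and log2(TPM + 1), and 2 without both divergent libraries. The cause of these shifts was not tested.

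With 1 library left out, genes called ranged from 511 to 999 for the interaction, members called from 1 to 2 for the interaction and from 2 to 3 between the treated lines, and related genes called from 2 to 4 between the untreated lines, from 1 to 2 in each response and from 0 to 1 for the interaction. The antizyme balance then ranged from 0.382 to 0.866 between the untreated and from 0.226 to 0.875 between the treated lines, from -0.326 to 0.344 for the treatment in Q7 cells and from -0.296 to 0.0874 in Q111 cells. With a replicate block, genes called numbered 2315 between the untreated and 3774 between the treated lines, 570 for the response of Q7 and 1693 for that of Q111 cells, and 626 for the interaction. Under the block the adjusted p was 0.0677 for the interaction of Amd1, 0.0564 for Smox between the untreated lines and 0.0693 for Amd2 in treated against untreated Q111 cells, and no other call of a member or related gene changed. Over 12 same-numbered pairs the correlation of deviations ran from -0.58 to 0.45, and 5 pairs were over 0.1. With so few libraries in a group, these values cannot tell whether the replicate numbers pair the samples.

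The members had at least 375 estimated counts per library.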
